A study of Homo sapiens with 6 samples.

Results

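The NKG2D ligand genes were followed in ribosome profiles of K562 cells depleted of N6AMT1. These are ULBP1, ULBP2, ULBP3, RAET1E, RAET1G and RAET1L on the long arm of chromosome 6, and MICA and MICB in the major histocompatibility complex (MHC) on the short arm. The 8 genes were picked by symbol from the 19330 genes of the deposited table, because ULBP2 stood near the top of the genes that rose in this same contrast. Their levels and fold changes are therefore given as a description, with no test. In Ribo-Seq, mRNA is digested until only the footprints covered by ribosomes are left, and these are sequenced. The footprint count of a gene measures its ribosome occupancy and follows mRNA amount as well as translation.

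K562 is an established human chronic myelogenous leukemia line. All cells received a pLentiCRISPRv2 vector, which carries Cas9 and a guide RNA, passed through 48 h of puromycin selection and were harvested 10 days post infection. The guide targeted N6AMT1, a methyltransferase of the translation release factor eRF1 (sgN6AMT1), or an olfactory receptor gene named OR11A1 or OR2M49 in the labels (sgCtrl). Each group held 3 libraries, which the study describes as independent lentiviral infections, and the control guide of each sgCtrl library is not stated. Each library is a bulk sample of transduced cells, so a rise in a fraction of the cells and a smaller rise in every cell cannot be told apart.

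NKG2D is an activating receptor of natural killer (NK) cells and of cytotoxic T cells, and it binds a family of ligands distantly related to MHC class I heavy chains. Healthy cells carry few of these ligands, while stressed, infected and transformed cells display more of them, which marks the cell for killing. ULBP1, ULBP2, ULBP3 and RAET1L (also called ULBP6) are held in the membrane by a glycosylphosphatidylinositol (GPI) anchor, whereas RAET1E (ULBP4), RAET1G (ULBP5), MICA and MICB have a transmembrane segment. K562 cells are a classical NK cell target.

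In GENCODE release 44 on GRCh38 the 6 ULBP and RAET1 genes lay within 185888 bases of chromosome 6. ULBP2 (ENST00000367351.3) runs from 149942014 to 149949235 on the plus strand in 5 exons, with a coding sequence (CDS) of 741 bases including the stop codon. ULBP1 (ENST00000229708.3) lies beside it on the same strand, from 149963943 to 149973715, with 5 exons and a CDS of 735 bases. The other 4 genes are on the minus strand. RAET1L (ENST00000286380.2) spans 150020130 to 150025532 with 4 exons and a CDS of 741 bases, and RAET1G (ENST00000367360.6) spans 149916878 to 149923121 with 5 exons and a longer CDS of 1005 bases. ULBP3 (ENST00000438272.2) spans 150064607 to 150069066 with a CDS of 735 bases, and RAET1E (ENST00000357183.8) spans 149883179 to 149898113 with a CDS of 792 bases. MICA lies at 31399784 to 31415315 and MICB at 31494881 to 31511124, both on the plus strand. These last positions were taken by gene symbol, because the transcripts listed for MICA and MICB (ENST00000418465.5 and ENST00000436655.2) had no match in the annotation.

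The ligand genes resemble each other closely enough that a short footprint often cannot be assigned to 1 of them, which is shown here with 120 bases of exon 2 of ULBP2. The stretch covers bases 181 to 300 of the CDS, counted from the A of the start codon, and lies at chr6:149945404-149945523 on the plus strand of GRCh38. The aligned stretch of each other gene follows, with capitals for the bases that differ from ULBP2.
ULBP2: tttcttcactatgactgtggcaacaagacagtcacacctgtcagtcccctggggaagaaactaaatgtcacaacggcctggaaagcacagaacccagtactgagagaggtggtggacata
RAET1L: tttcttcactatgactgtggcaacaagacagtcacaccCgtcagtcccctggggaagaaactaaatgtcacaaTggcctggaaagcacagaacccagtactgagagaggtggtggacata
RAET1G: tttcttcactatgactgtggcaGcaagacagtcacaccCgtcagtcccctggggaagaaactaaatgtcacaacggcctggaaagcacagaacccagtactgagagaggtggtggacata
ULBP1: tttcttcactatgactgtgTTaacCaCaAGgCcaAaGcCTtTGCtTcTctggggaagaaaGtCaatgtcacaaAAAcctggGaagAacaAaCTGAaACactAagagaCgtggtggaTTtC
ULBP3: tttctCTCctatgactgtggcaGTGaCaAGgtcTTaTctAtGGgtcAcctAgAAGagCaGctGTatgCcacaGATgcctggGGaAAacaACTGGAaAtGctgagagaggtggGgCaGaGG
RAET1E: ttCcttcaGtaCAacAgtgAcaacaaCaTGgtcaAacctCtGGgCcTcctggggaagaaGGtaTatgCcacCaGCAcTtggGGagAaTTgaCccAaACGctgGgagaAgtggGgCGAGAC
RAET1L and RAET1G each differed from ULBP2 at 2 bases of this stretch. ULBP1 differed at 35 bases, RAET1E at 43 and ULBP3 at 45.

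Over the whole CDS, ULBP2 and RAET1L were identical at 717 of 741 aligned bases (96.8%), with a longest identical run of 171 bases at the 3′ end. ULBP2 and RAET1G were identical at 94.3% of bases with a longest run of 121 bases, and RAET1L and RAET1G at 94.5%. Identity to ULBP2 was 77.8% for ULBP1, 74.3% for ULBP3 and 59.6% for RAET1E. ULBP2, RAET1L and RAET1G thus formed a group of near copies, and ULBP1 stood outside it. MICA and MICB, compared through the annotated transcripts ENST00000449934 and ENST00000252229, shared 91.8% of bases.

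Every 30-base window of each CDS, a typical footprint length, was looked up in 17689 coding transcripts. For ULBP2, 451 of 712 windows (63.3%) also occurred in another gene, 419 of them in RAET1L and 237 in RAET1G. For RAET1L the share was 65.7% and for RAET1G 30.2%. These 3 genes could therefore be told apart over only part of their length. For ULBP1 the share was 2.97%, for ULBP3 1.7% and for RAET1E 0 of 763 windows. Windows of ULBP1 were thus nearly all specific to it among these transcripts. MICA shared 18% and MICB 16.4% of windows. Among these transcripts, no window of a ligand gene occurred outside the family at 26, 30 or 34 bases. The lookup took exact matches in a single transcript per gene, and listed transcripts without a match in the annotation were not read. For ULBP2 the shared part was 66.1% at 26 bases and 60.9% at 34 bases. Per the study's methods, footprints were mapped with Bowtie2 at its default settings, which report a single alignment for a read that matches several transcripts. Counts by overlap with annotated genes were also made, and whether the table holds these is not stated. The split of counts between ULBP2, RAET1L and RAET1G is therefore uncertain, and the effect of shared reads on their sum was not tested.

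**Figure D1:**
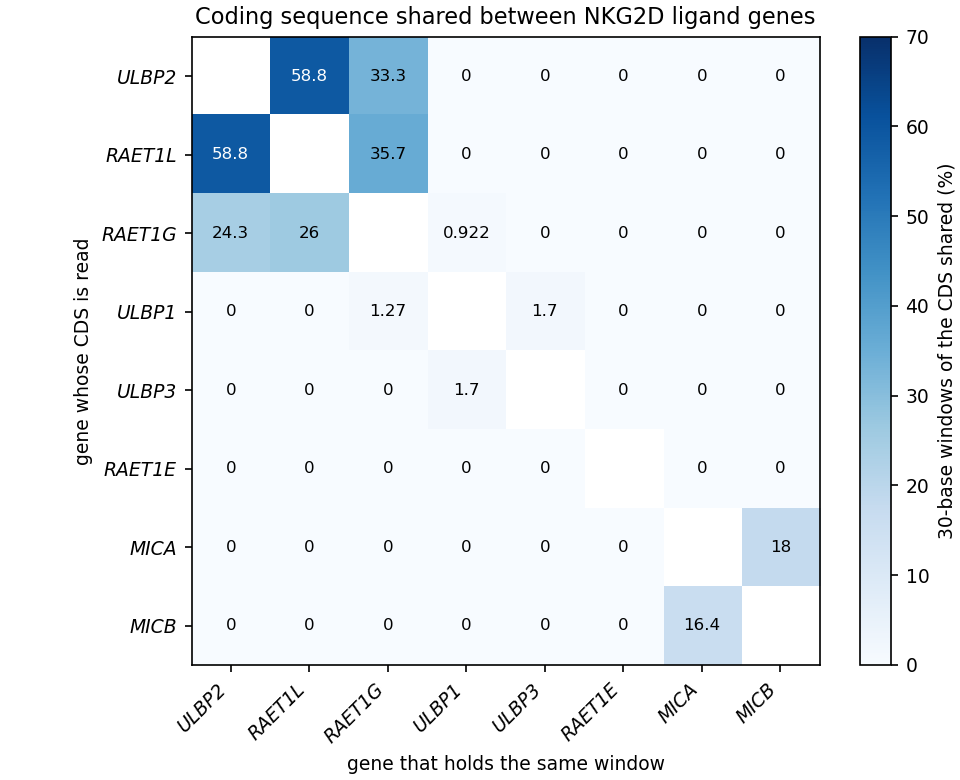
Percent of 30-base windows in the CDS of each ligand gene (y axis) that also occur in the transcript of another ligand gene (x axis). ULBP2 shares 58.8% of its windows with RAET1L and 33.3% with RAET1G, and RAET1G shares 24.3% of its own with ULBP2. ULBP1 and ULBP3 share at most 1.7% with any other gene, and RAET1E shares none.

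The 6 libraries held between 1821356 and 2969736 counts. Chi-square per degree of freedom between libraries was 1.25 to 1.68 within a group and 4.89 to 7.04 across groups. Footprints on N6AMT1, the targeted gene, fell from 25, 24 and 34 counts in the control libraries to 10, 9 and 8 after depletion (log2 fold change -1.51, adjusted p = 6.69e-05 by edgeR's quasi-likelihood test). Cells matched the K562 label: the 8 K562 markers, fetal and embryonic globins among them, summed to 27124 to 28633 counts per 1000000 (CPM) in sgCtrl and 27543 to 28479 CPM in sgN6AMT1. Of these, HBE1 rose (log2 fold change 0.48, adjusted p = 1.46e-17), while HBZ, GATA1 and TFRC fell by 0.27, 0.29 and 0.33 (adjusted p 5.85e-05, 1.35e-04 and 1.49e-09). Their part in the changes of the ligand genes was not tested. Of 10 markers of T, B and NK cells and monocytes in the table, 5 had no count in any library (CD8A, MS4A1, KLRD1, CD14 and FCN1). The 10 markers together lay at 32.7 to 42.4 CPM in sgCtrl and 29.4 to 34.7 CPM in sgN6AMT1, nearly all of it from CD3D.

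Of the 8 ligand genes, 6 had enough counts to enter the fit across 9202 genes, and all 6 were past its threshold (adjusted p under 0.05) in the direction of sgN6AMT1. The background was 12.9% of tested genes called higher, and the groups of libraries did not overlap for 37.5% of tested genes, with sgN6AMT1 higher for 18.4%. Since ULBP2 in this contrast brought the family here, nothing is read from the count of 6. ULBP1, ULBP2, RAET1G and RAET1L reached the count filter only through the sgN6AMT1 libraries, so that a difference was built into their passing. ULBP3 and RAET1E did not reach it.

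ULBP2 is among the ligands that many tumor cells display and release. Its counts were 3, 7 and 3 in sgCtrl libraries against 59, 85 and 56 in those of sgN6AMT1, or 1.51, 2.41 and 1.48 CPM against 25.9, 36.7 and 30.4 CPM. All sgN6AMT1 libraries were far above all sgCtrl libraries, and the lowest of the former was 10.7 times the highest of the latter. Mean levels were 1.80 ± 0.53 CPM (SD, n = 3) and 31.0 ± 5.46 CPM (SD, n = 3). The ratio of the summed counts, scaled to library size, was 16.5 with a 95% interval of 9.45 to 31.6, and the fitted log2 fold change was 4.01 (SE 0.29). Intervals on ratios and shares of counts are exact and were taken on counts pooled over the libraries of a group. They cover counting error only and leave out the spread between libraries.

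RAET1L, the nearest copy of ULBP2, had 1, 1 and 1 sgCtrl counts, against 20, 18 and 20 in sgN6AMT1. On the CPM scale this was 0.447 ± 0.088 (SD, n = 3) against 9.13 ± 1.57 (SD, n = 3). The groups lay wide apart, and the sgN6AMT1 libraries were close to each other. The ratio of summed counts was 20.8 (95% interval 6.77 to 104) on only 3 counts in sgCtrl. RAET1G, which encodes a ligand with a transmembrane segment, had 1, 0 and 0 sgCtrl counts, against 11, 16 and 14 in sgN6AMT1. Its mean level was 0.167 ± 0.290 CPM (SD, n = 3) against 6.44 ± 1.45 CPM (SD, n = 3). With a single count in sgCtrl, the ratio of 44.1 had an interval of 7.48 to 1782. The fitted log2 fold changes of 4.21 (SE 0.54) for RAET1L and 5.00 (SE 0.72) for RAET1G depend on the small count that the fit adds to every value, and that of RAET1G ranged from 4.38 without sgCtrl replicate 2 to 6.87 without sgCtrl replicate 1.

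ULBP1, whose windows were nearly all its own among the transcripts read, had 4, 13 and 9 sgCtrl counts, against 27, 21 and 25 in sgN6AMT1. In CPM these were 2.01, 4.48 and 4.44 against 11.8, 9.07 and 13.6, so every sgN6AMT1 library was higher, by at least 2.02 times. Mean levels were 3.64 ± 1.41 CPM and 11.5 ± 2.27 CPM (SD, n = 3 each), the ratio of summed counts was 3.02 (95% interval 1.91 to 4.92) and the log2 fold change 1.58 (SE 0.32). ULBP3 was barely detected, with 0, 1 and 0 sgCtrl counts, against 1, 0 and 1 in sgN6AMT1. RAET1E, the gene of ULBP4, had 0 counts in all libraries. For ULBP3 and RAET1E no fold is given, since both groups stayed under a floor of 3 counts.

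**Figure D2:**
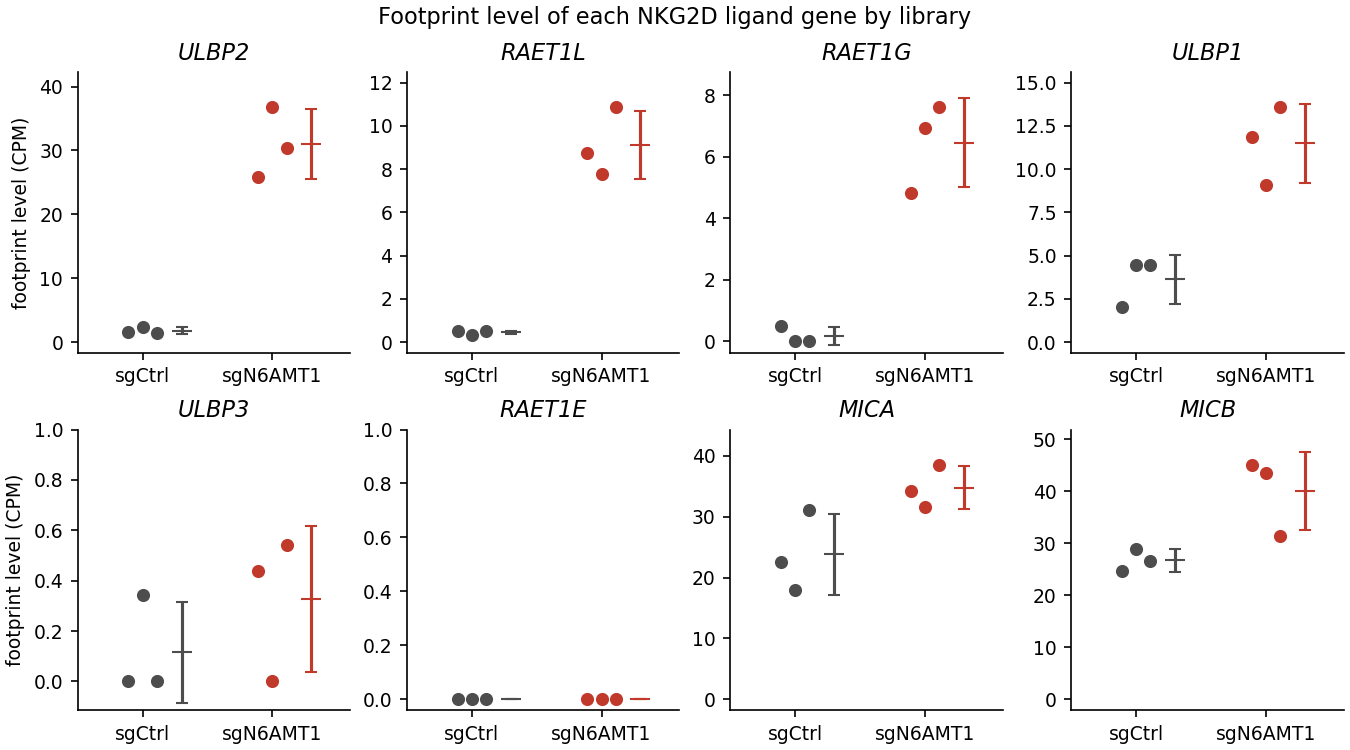
CPM (y axis, a separate linear scale per panel) of each ligand gene in the 3 sgCtrl and 3 sgN6AMT1 libraries, with 1 point per library and bars for mean ± SD. ULBP2, RAET1L, RAET1G and ULBP1 lie higher in every sgN6AMT1 library, MICA and MICB are higher by a narrow margin, and ULBP3 and RAET1E are at or near 0.

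MICA and MICB were the ligands with the highest counts in control cells. MICA had 45, 52 and 63 sgCtrl counts, against 78, 73 and 71 in sgN6AMT1, or 22.6, 17.9 and 31.1 CPM against 34.2, 31.5 and 38.5 CPM. The groups did not overlap, but the margin was small, since the lowest sgN6AMT1 library was 1.02 times the highest sgCtrl library. The ratio of summed counts was 1.49 (95% interval 1.21 to 1.84) and the log2 fold change 0.57 (SE 0.16). Without sgCtrl replicate 2 the log2 fold change of MICA was 0.36, and without sgCtrl replicate 3 it was 0.79.

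MICB had 49, 84 and 54 sgCtrl counts, against 103, 101 and 58 in sgN6AMT1, which in CPM was 24.6, 29.0 and 26.6 against 45.1, 43.6 and 31.5. The third sgN6AMT1 library lay nearer to the controls than to the other sgN6AMT1 libraries. The ratio was 1.51 (95% interval 1.24 to 1.83) and the log2 fold change 0.59 (SE 0.15). MICB took 53.3% ± 7.88 of the counts of the pair in sgCtrl and 53.3% ± 7.25 in sgN6AMT1 (SD, n = 3 each), so their balance differed by less than its spread. The MICA and MICB sum rose from 50.6 ± 6.14 CPM to 74.8 ± 4.66 CPM, with a ratio of 1.50 (95% interval 1.30 to 1.73).

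Because ULBP and RAET1 genes share footprints, their counts were also summed per library. The sum was 9, 22 and 13 sgCtrl counts, against 118, 140 and 116 in sgN6AMT1, or 4.52, 7.58 and 6.41 CPM against 51.7, 60.5 and 63.0 CPM. The groups stood apart by 6.82 times at their nearest libraries. Mean levels were 6.17 ± 1.55 and 58.4 ± 5.91 CPM (SD, n = 3 each), the ratio was 9.14 (95% interval 6.67 to 12.8) and the log2 fold change 3.18 (SE 0.19).

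The make-up of the ULBP and RAET1 counts differed between the groups. Of the 44 counts pooled over sgCtrl, ULBP1 held 59.1% (95% interval 43.2 to 73.7) and ULBP2 29.5% (16.8 to 45.2). Of the 374 counts pooled over sgN6AMT1, ULBP2 held 53.5% (48.3 to 58.6) and ULBP1 19.5% (15.6 to 23.9). By count, the largest share was thus that of ULBP1 in sgCtrl, where its interval overlapped that of ULBP2. In sgN6AMT1 the largest share was that of ULBP2. Shares of the same total depend on each other, and the intervals cover counting error only, so they do not compare the shares. The split between ULBP2, RAET1L and RAET1G is also uncertain. RAET1L went from 6.82% (1.43 to 18.7) to 15.5% (12.0 to 19.6), with intervals that overlap, and RAET1G from 2.27% to 11.0% (7.98 to 14.6). RAET1E held 0 of 374 counts in sgN6AMT1, which allows a share of up to 0.981% by the exact interval. Averaged over libraries, the share of ULBP1 was 57.6% ± 12.5 in sgCtrl and 19.8% ± 4.22 in sgN6AMT1, and that of ULBP2 was 29.4% ± 5.54 and 53.0% ± 6.74 (SD, n = 3 each).

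**Figure D3:**
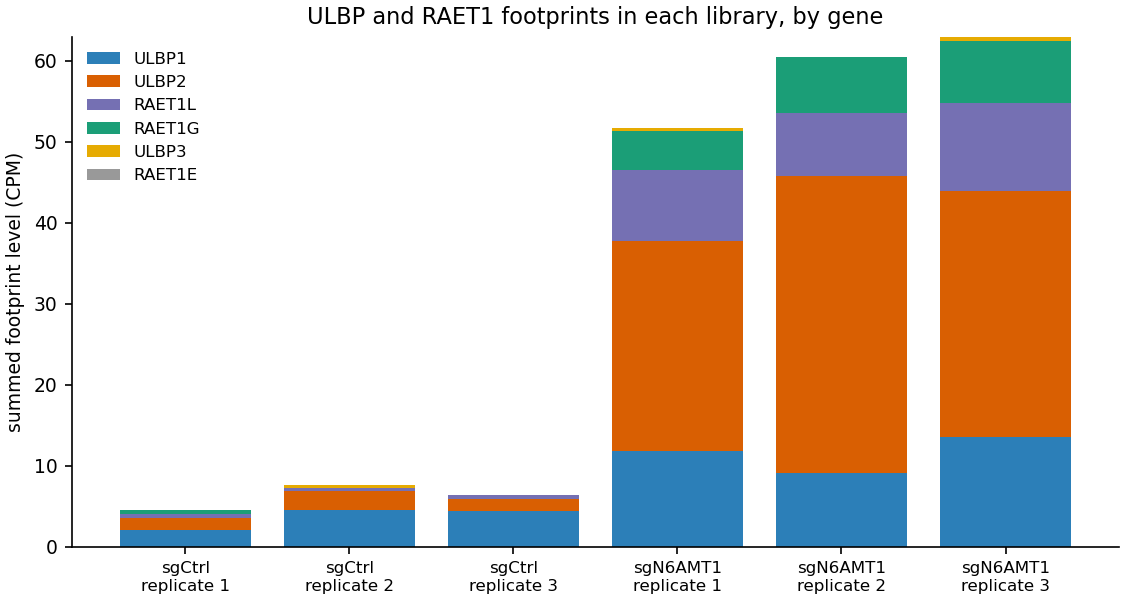
Footprint level of the ULBP and RAET1 genes (y axis, CPM, stacked by gene) in each of the 6 libraries (x axis). The stacks reach 4.52 to 7.58 CPM in sgCtrl and 51.7 to 63.0 CPM in sgN6AMT1, and the largest part is ULBP1 in the former (57.6% ± 12.5 of counts) and ULBP2 in the latter (53.0% ± 6.74).

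Over all 8 ligands, the libraries held 51.7, 54.5 and 64.1 CPM in sgCtrl and 131, 136 and 133 CPM in sgN6AMT1. The mean went from 56.8 ± 6.49 to 133 ± 2.31 CPM (SD, n = 3 each). The ULBP and RAET1 genes made up 10.9% ± 2.70 of ligand counts in sgCtrl and 43.8% ± 4.00 in sgN6AMT1. Control cells thus had mostly MICA and MICB footprints, and in N6AMT1-depleted cells the ULBP and RAET1 genes came close to them in count.

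Levels can be compared between genes only per length, and a CDS length was at hand for the 6 ULBP and RAET1 genes. Dividing by it is apt only if the deposited counts are those over the CDS, which is not stated. In sgCtrl the order in CPM per kb of CDS was ULBP1 (4.96 ± 1.92), ULBP2 (2.43 ± 0.717), RAET1L (0.603 ± 0.119), RAET1G (0.167 ± 0.289) and ULBP3 (0.156 ± 0.271), with RAET1E at 0. The SD ranges of ULBP1 and ULBP2 overlapped, so their order lay within the spread, and RAET1G and ULBP3 could not be ordered. In sgN6AMT1 the order was ULBP2 (41.8 ± 7.36), ULBP1 (15.6 ± 3.09), RAET1L (12.3 ± 2.12), RAET1G (6.41 ± 1.44) and ULBP3 (0.445 ± 0.392), again with RAET1E at 0. By the spread between libraries, ULBP2 stood clear of all others, while ULBP1 and RAET1L lay within their spread of each other. The SD leaves out the uncertain split of shared reads. The places of ULBP2, RAET1L and RAET1G in both orders are therefore not settled.

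Ordered by log2 fold change among the 9202 tested genes, RAET1G was in place 4, RAET1L in place 7, ULBP2 in place 8 and ULBP1 in place 76, while MICB and MICA were in places 648 and 681. The high place of ULBP2 is what brought the family here, so nothing is read from it. RAET1G and RAET1L had at most 1 count per sgCtrl library and can share reads with ULBP2, so their places are uncertain and need not be separate results. These members, MICA and MICB apart, reached the count filter only through the sgN6AMT1 libraries. Among the 7804 genes with a mean of at least 10 CPM, ULBP2 was in place 2. The genes next to it by fold change were FCGR1A above, an Fc receptor of myeloid cells, with a log2 fold change of 4.70 (0.69 above that of ULBP2), and CD24, a small GPI-anchored surface protein, with 3.55 (0.46 below). FN1, which encodes fibronectin, and SOCS1, an inhibitor of cytokine signaling, followed at 2.91 and 2.57. The likeness here is the difference in log2 fold change over the 6 libraries. FCGR1A, at 0.831 ± 0.765 CPM in sgCtrl, also reached the count filter only through the sgN6AMT1 libraries.

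Promoter windows are shown for the 4 members with the largest fold changes, all higher in the same libraries. Each is the 250 bases before the RefSeq start on GRCh38.p14, written 5′ to 3′ on the strand of the gene. They lie at chr6:149941764-149942013 (plus) for ULBP2, chr6:149963693-149963942 (plus) for ULBP1, chr6:150025533-150025782 (minus) for RAET1L and chr6:149923122-149923371 (minus) for RAET1G. Capitals mark matches on either strand to the GC box with the letters GGGCGG, the box named CCAAT after its letters, or the core of a cyclic AMP response element, which reads TGACG.
ULBP2: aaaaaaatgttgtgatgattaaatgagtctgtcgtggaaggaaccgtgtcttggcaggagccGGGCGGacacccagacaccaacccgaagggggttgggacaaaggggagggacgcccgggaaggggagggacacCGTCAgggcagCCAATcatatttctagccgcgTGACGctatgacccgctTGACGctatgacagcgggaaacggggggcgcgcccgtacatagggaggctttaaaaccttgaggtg
ULBP1: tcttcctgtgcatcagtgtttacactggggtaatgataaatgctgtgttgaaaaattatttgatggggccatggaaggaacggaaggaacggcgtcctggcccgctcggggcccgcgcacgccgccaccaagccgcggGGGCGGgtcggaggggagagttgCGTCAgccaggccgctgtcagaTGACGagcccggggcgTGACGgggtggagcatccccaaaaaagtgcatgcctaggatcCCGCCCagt
RAET1L: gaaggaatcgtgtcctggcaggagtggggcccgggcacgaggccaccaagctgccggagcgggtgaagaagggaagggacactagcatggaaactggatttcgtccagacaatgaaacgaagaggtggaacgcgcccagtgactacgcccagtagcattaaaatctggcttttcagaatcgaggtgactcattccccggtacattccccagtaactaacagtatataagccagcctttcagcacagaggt
RAET1G: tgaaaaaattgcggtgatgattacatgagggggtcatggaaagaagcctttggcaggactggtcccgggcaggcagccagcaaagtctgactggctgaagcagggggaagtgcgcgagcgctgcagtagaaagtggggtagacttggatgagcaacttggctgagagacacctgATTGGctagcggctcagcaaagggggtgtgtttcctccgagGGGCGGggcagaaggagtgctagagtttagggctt
ULBP2 and ULBP1 each held 3 TGACG cores, starting 115, 83 and 66 bases before the start in ULBP2 and 89, 67 and 51 bases before it in ULBP1. RAET1L and RAET1G, close to ULBP2 in coding sequence, held none. At least 1 TGACG was found in 21.2% of all 35116 RefSeq promoter windows of this length, and windows with 3 were not counted. The windows of ULBP3, RAET1E, MICA and MICB, which are not shown, held no TGACG. A GC box occurred once in ULBP2 and RAET1G and at 2 places in ULBP1 (42.6% of all windows held 1 or more), and a CCAAT box once each in ULBP2 and RAET1G (32% of all windows). RAET1L held an AP-1 site (TGANTCA, 6.57% of all windows) and none of the 3 motifs in capitals. The ATF4 composite element (TGATGNAA, 3.14% of all windows) was in none of the 4 windows. A match describes the letters only, and its absence from a window says nothing about a factor.

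The table held 16 other genes within 1 Mb of the ULBP and RAET1 genes. Of these, 9 were tested, 1 rose and 3 fell, with a median log2 fold change of -0.22 against 0.0063 over all tested genes, of which 26.9% changed. TAB2, an adaptor in NF-kappaB signaling, rose (0.54, adjusted p = 0.0194). MTHFD1L, a mitochondrial enzyme of folate metabolism, fell by 0.32 (adjusted p = 9.74e-04), and NUP43, a nuclear pore subunit, fell by 0.22 (adjusted p = 0.0229), as did PPIL4 by 0.27 (adjusted p = 0.0443). TAB2, NUP43 and PPIL4 lost their calls with DESeq2 (adjusted p 0.146 to 0.177) and without single libraries. TAB2 lost it without sgCtrl replicate 2 or 3 or sgN6AMT1 replicate 1 or 2 (adjusted p 0.0675 to 0.102), NUP43 without sgCtrl replicate 2 or sgN6AMT1 replicate 3 (0.344 and 0.262), and PPIL4 without sgCtrl replicate 1 or 2 or sgN6AMT1 replicate 1 or 2 (0.0556 to 0.221).

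**Figure D4:**
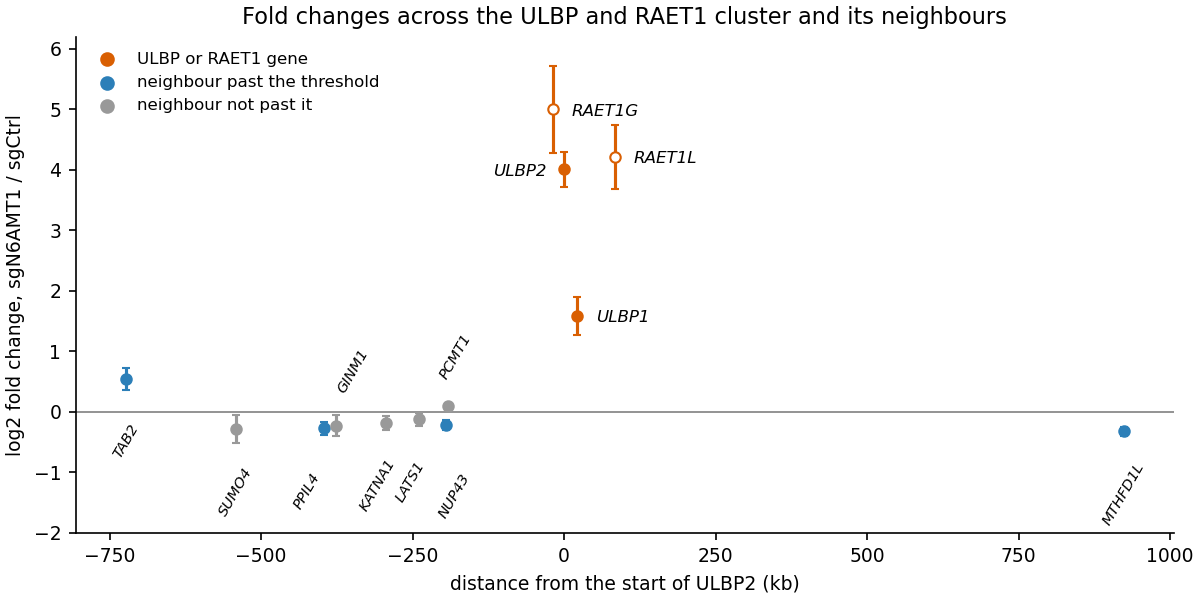
Log2 fold change (y axis, sgN6AMT1 over sgCtrl, bars ± SE) of tested genes around the ULBP and RAET1 cluster against distance from the start of ULBP2 in kb (x axis). RAET1G, RAET1L, ULBP2 and ULBP1 lie between 1.58 and 5.00, and no neighbor is above 0.54; open points (RAET1G, RAET1L) have at most 1 count per sgCtrl library.

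Around MICA and MICB, 28 of 57 genes within 500 kb were tested, 7 rose and 1 fell (28.6% changed, against 26.9% of all tested genes), with a median of 0.12. HSPA1A, a heat shock protein whose near-identical copy HSPA1B can share its reads, rose by 0.57 (adjusted p = 1.10e-16). NEU1, a lysosomal sialidase, rose by 0.58 (adjusted p = 3.44e-10) and CLIC1, a chloride channel protein, by 0.24 (adjusted p = 9.67e-06). C6orf47 rose by 0.72 (adjusted p = 0.00865), a call lost with DESeq2 (adjusted p = 0.0908) and without sgN6AMT1 replicate 2 (0.52, adjusted p = 0.150). DDX39B, an RNA helicase, fell by 0.33 (adjusted p = 1.16e-05).

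Genes that act on the ligand genes or on their products were then examined. Of 22 tested regulators reported for NKG2D ligand genes, 2 rose, 7 fell and 13 did not pass (40.9% changed, against 26.9% of all tested genes), with a median log2 fold change of -0.13. ATF4, a stress-induced transcription factor known to act on ULBP1, rose from 25.5 ± 3.62 to 37.1 ± 3.50 CPM (log2 fold change 0.53, SE 0.15, adjusted p = 0.00414), although with DESeq2 its adjusted p was 0.0600. RELA, an NF-kappaB subunit, rose by 0.31 (adjusted p = 0.0281) and lost this call with DESeq2 (adjusted p = 0.137) and without sgCtrl replicate 2 or 3 or sgN6AMT1 replicate 3 (adjusted p 0.104 to 0.116). IGF2BP3, an RNA-binding protein known to lower ULBP2 and MICB mRNA, fell by 0.54, from 148 ± 1.19 to 102 ± 8.74 CPM (adjusted p = 2.02e-07).

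DNMT1, the maintenance DNA methyltransferase, fell by 0.32 (adjusted p = 2.39e-05) and STAT3 by 0.39 (adjusted p = 4.62e-05). DICER1, which cuts microRNA precursors, fell by 0.64 (adjusted p = 0.00425), but not past the threshold with DESeq2 (adjusted p = 0.0646) or without sgCtrl replicate 2 (-0.49, adjusted p = 0.0868). ATM, the DNA damage kinase, fell by 0.62 (adjusted p = 0.00167), but without sgN6AMT1 replicate 2 the value was -0.45 (adjusted p = 0.0650). With DESeq2, 5 regulators passed, all of them lower.

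Ligands can be shed from the cell surface by proteases. Of 4 tested genes of shedding, 2 rose and none fell (50% changed, against 26.9% of all tested genes), with a median of 0.15. The sheddase ADAM10 rose from 149 ± 14.0 to 198 ± 23.4 CPM (log2 fold change 0.41, adjusted p = 1.27e-05). ADAM17, the other main sheddase of MIC and ULBP proteins, was at 65.5 ± 3.36 and 59.0 ± 9.10 CPM (log2 fold change -0.14, adjusted p = 0.388). ADAM9 rose by 0.31 (adjusted p = 0.0358) and lost this call with DESeq2 (adjusted p = 0.161), without the count filter (0.0572) and without sgCtrl replicate 1 or 3 or sgN6AMT1 replicate 2 or 3 (0.0559 to 0.171).

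The GPI anchor that holds ULBP1, ULBP2, ULBP3 and RAET1L is made and attached by a common set of enzymes, of which 23 were tested. Of these 1 rose and 1 fell (8.7% changed, against 26.9% of all tested genes), with a median of 0.09. PIGS, a subunit of the complex that attaches the anchor, fell by 0.57 (adjusted p = 9.78e-07). PGAP3, which remodels the anchor lipid, rose by 1.23 (adjusted p = 0.0113) from 2.79 ± 1.02 to 6.45 ± 0.89 CPM, but it reached the count filter only through the sgN6AMT1 libraries. It lost the call with DESeq2 (adjusted p = 0.114) and without sgCtrl replicate 1 or 2 or sgN6AMT1 replicate 2 (adjusted p 0.0540 to 0.0714). PIGA, of the first step of anchor synthesis, had a log2 fold change of 0.09 (adjusted p = 0.797).

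Of 12 tested genes for other surface proteins that NK cells engage, 5 rose and 1 fell (50% changed, against 26.9% of all tested genes), with a median of 0.40. CD80, a costimulatory ligand, rose by 1.76 (adjusted p = 4.76e-09), from 6.28 ± 2.03 to 22.5 ± 5.05 CPM. With 8, 23 and 14 sgCtrl counts, CD80 reached the count filter only with the help of sgN6AMT1 libraries, so its adjusted p is descriptive. TNFRSF10B, a TRAIL death receptor, rose by 1.10 (adjusted p = 8.94e-07), and the adhesion ligands ICAM1 and ICAM2 rose by 0.98 (adjusted p = 1.48e-12) and 0.82 (adjusted p = 1.05e-08). NECTIN2, a ligand of the receptor DNAM-1, rose by 0.35 (adjusted p = 0.0189) and is named after its value was seen. Unlike the other genes named from this list, its call was not followed through the alternative settings. TNFRSF10A, the other TRAIL death receptor, fell by 0.34 (adjusted p = 0.0133) and lost the call with DESeq2 (adjusted p = 0.0899) and without sgCtrl replicate 2 or sgN6AMT1 replicate 1 (adjusted p 0.0789 and 0.0967). NCR3LG1, which encodes B7-H6, the ligand of NKp30, was at 52.3 ± 2.61 and 51.1 ± 1.02 CPM (log2 fold change -0.03, adjusted p = 0.895).

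MHC class I molecules, to which the ligands are related, restrain NK cells through other receptors. Of 11 tested genes of class I chains and peptide loading, 6 rose and 2 fell (72.7% changed, against 26.9% of all tested genes), with a median log2 fold change of 0.21. B2M, the common light chain, which NKG2D ligands do without, rose from 419 ± 12.7 to 748 ± 13.6 CPM (log2 fold change 0.84, adjusted p = 1.69e-25). HLA-E, the ligand of the inhibitory receptor NKG2A, rose from 23.1 ± 3.34 to 40.8 ± 5.72 CPM (0.79, adjusted p = 1.67e-05). PROCR, a class I-like receptor of protein C, had the largest change of the list (2.31, adjusted p = 2.10e-24), from 12.9 ± 1.68 to 64.0 ± 1.88 CPM. TAPBP and MR1 rose by 0.72 (adjusted p = 3.38e-10) and 0.71 (adjusted p = 0.00121), whereas the peptide transporter subunit TAP2 and the chaperone CANX fell by 0.51 (adjusted p = 0.00335) and 0.24 (adjusted p = 1.28e-05).

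**Figure D5:**
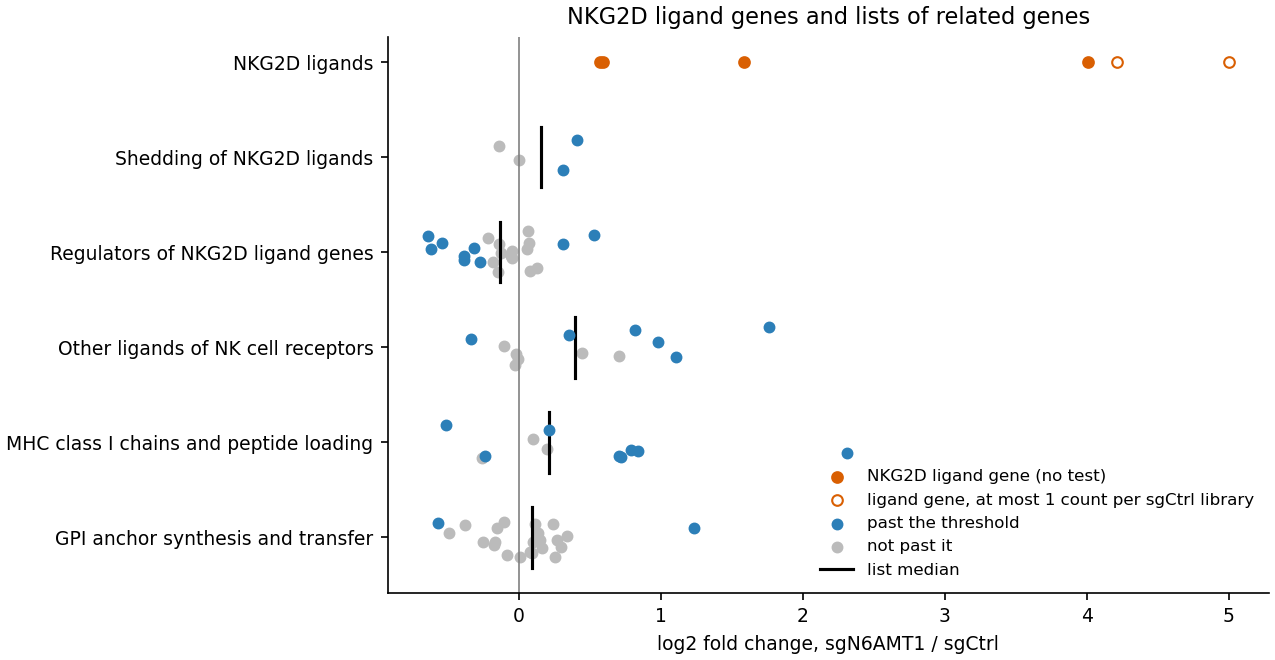
Log2 fold change (x axis, sgN6AMT1 over sgCtrl) of each tested gene of the ligand family and of 5 lists of related genes (y axis), with a vertical bar for the list median. The 6 tested ligands are all above 0, and open points (RAET1G, RAET1L) have at most 1 count per sgCtrl library; the list medians lie between -0.13 and 0.40.

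The receptor itself was not seen in these cells. KLRK1, which encodes NKG2D, had 0 counts in all libraries, and HCST, its signaling adaptor, had 1 count in a single sgCtrl library. TYROBP, an adaptor of several activating receptors of NK and myeloid cells, had 3, 1 and 1 sgCtrl counts, against 18, 18 and 11 in sgN6AMT1, or 0.782 ± 0.633 and 7.21 ± 1.08 CPM (SD, n = 3 each). It reached the count filter only through the sgN6AMT1 libraries, so its levels are given with no test.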

How the data were processed

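Ribosome footprints of 3 sgCtrl and 3 sgN6AMT1 K562 libraries were analysed. Per the study's methods, the authors trimmed reads with cutadapt, kept footprint lengths, removed rRNA and tRNA reads after HISAT2 mapping to GRCh38, mapped the rest with Bowtie2 to 1 canonical transcript per gene, and summed P-sites predicted by riboWaltz over each CDS. For DESeq2 they counted reads by overlap with annotated genes, and it is not stated which of both counts was deposited. The deposited counts are whole numbers, neither normalized nor pooled, and 0 count columns belonged to other samples. The study's RNA-Seq was not used here, and translational efficiency was not analysed here.

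Genes passing filterByExpr (minimum count 10; 9202 kept, 10128 removed) entered a fit by edgeR 4.0.16 under R 4.3.3 (TMM factors, robust quasi-likelihood F test, 2-sided) with Benjamini-Hochberg adjustment over all of them and a threshold of 0.05. CPM are counts per 1000000 of the TMM-adjusted library size, log2 fold changes are sgN6AMT1 over sgCtrl, and no pseudocount was added to CPM. Ratios of summed counts have exact conditional binomial 95% intervals and shares have Clopper-Pearson intervals. Totals of 1821356 to 2969736 counts per library limit precision for the low members. In data simulated from these samples for the sgN6AMT1 against sgCtrl comparison, edgeR recovered 91.8% of 196 genes changed 2-fold among 9182, and 2.70% of its calls were false. Every simulated gene had the same spread beyond counting error and few genes changed, so these rates need not hold for the real calls.

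The members, the lists and the promoter motifs were chosen with earlier results of these data known, and no set test was run. Named were the 8 members, N6AMT1, ATF4, NCR3LG1, B2M, HLA-E, ADAM10, ADAM17 and PIGA. In each of 7 lists, genes past the threshold whose log2 fold change was 0.5 or more in size and the 3 with the smallest p in each direction were added, as were the 3 genes on either side of ULBP2 by fold change among those with at least 10 CPM. Alternatives were DESeq2 1.42.0, limma-voom (limma 3.58.1), RLE and upper-quartile factors, total counts, no filter, a mean of at least 50 counts, the replicate number as a block, summed related genes, and leaving out each library. Positions come from GENCODE release 44 on GRCh38, the authors' build, where 17687 of 19330 transcripts matched. Promoters come from RefSeq on GRCh38.p14, which held all 8 members.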

Additional observations from a re-analysis of the deposited data

How the results depend on the processing

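All members with a fold change kept their direction under every alternative run. ULBP1 lay between 1.33 and 1.79 on the log2 scale, MICA between 0.36 and 0.79, MICB between 0.50 and 0.71, the ULBP and RAET1 sum between 3.02 and 3.39 and the MICA and MICB sum between 0.51 and 0.67. Leaving out single libraries gave 3.86 to 4.32 for ULBP2 and 4.38 to 6.87 for RAET1G. Limma-voom gave 4.35 for RAET1G and 3.79 for RAET1L. With a mean of at least 50 counts ULBP1, ULBP2, RAET1G and RAET1L had no value, and ULBP3 and RAET1E had no fold in any setting. N6AMT1 stayed past the threshold in all 13 alternatives (-1.80 to -1.25, adjusted p 1.13e-05 to 0.00436).

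DESeq2 called 1440 genes (676 higher, 764 lower) against 2473 with edgeR (1191 higher, 1282 lower). DESeq2 called 1 gene of shedding, 5 regulators, 1 gene of GPI anchors, 1 neighbor of the ULBP and RAET1 genes and 5 neighbors of MICA and MICB. Without the filter, 1 gene of shedding passed, and with a mean of at least 50 counts 1 neighbor of the ULBP and RAET1 genes. Leaving out single libraries gave 1 to 2 genes of shedding, 1 to 3 of GPI anchors and 1 to 3 neighbors of the ULBP and RAET1 genes. NCR3LG1, never past the threshold, changed sign with total counts (0.0271), without sgCtrl replicate 1 (0.00782), and ranged from -0.0622 to 0.00782 over the fits without 1 library.

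The replicate numbers did not pair the samples: deviations of same-numbered libraries correlated at -0.186 to 0.00657 over 3661 genes, and 0 of 6 libraries correlated best with its own number. With the number as a block, 2390 genes passed (1167 higher, 1223 lower), and PPIL4 did not (adjusted p = 0.0516). Depth limits RAET1E, RAET1G, RAET1L and ULBP3, which had at most 3 summed counts in sgCtrl. NUP43 and PPIL4 also lost their calls with total counts and with a mean of at least 50 counts (adjusted p 0.0541 to 0.119).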
